A study of Mus musculus with 12 samples.

Results

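The collagen genes are those whose symbol reads Col, a type number, the letter a and a chain number, such as Col1a1. The array named 42 of them among 18193 genes, by 82 probe sets, and 38 passed the filter on dim genes that left 15493 genes for testing. They comprise 11 fibrillar genes, 6 genes of the type IV collagen of basement membranes and 25 genes of other types. The 4 genes that did not pass were Col24a1, Col4a4, Col6a5 and Col17a1, whose levels lay between 2.02 and 3.22 on the log2 scale. Of the 44 such genes in the RefSeq table, 2 (Col6a6 and Col28a1) are not named on the array and were not analysed here.

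RNA came from whole tumours that grew under the skin of the right flank of female 129sv/ev mice after inoculation of 344SQ cells, a mouse lung adenocarcinoma line. The cells were either the parental line, abbreviated Sen in the titles, or a line derived from it that resists anti-PD-1. This antibody blocks PD-1, a receptor that restrains T cells. The antibody or control IgG was dosed at 10 mg/kg on days 4 and 7, and tumours were taken on day 11. This gave 4 groups of 3 arrays each: parental with IgG, parental with anti-PD-1, resistant with IgG and resistant with anti-PD-1. All groups carried tumours of the same cell origin in hosts of 1 strain, and the labels name 1 resistant derivative, so the line comparison is between these 2 lines. The labels give 5 mice per group without tying single mice to arrays, so the tests rest on the spread among arrays, which may be technical. Values are log2 expression levels of 1 probe set per gene, the one with the highest mean. A probe set's level depends on its sequence, so levels are compared between arrays and not between genes. A gene is called where the p-value of limma, adjusted over all genes tested, is under 0.05.

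Collagens are proteins of 3 chains wound into a triple helix, and most are secreted into the extracellular matrix. The chains of types I, II, III, V and XI assemble into fibrils, type IV chains form the meshwork of basement membranes, and further types bind to fibrils, form beaded filaments, anchor epithelium to the underlying tissue or stay in the cell membrane. In carcinomas, fibroblasts are known as the main source of fibrillar collagens, while epithelial and endothelial cells make basement membrane chains.

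The type IV chains are encoded by pairs of genes that start next to each other on opposite strands, so their start regions are shown. The annotated Col4a1 and Col4a2 genes overlap by 85 bases on chromosome 8, and the 300-base RefSeq windows around an annotated start of each (build GRCm38.p6) share 78 bases, which are the last 78 bases of the Col4a2 window. Col4a6 and Col4a5 lie head to head on chromosome X with 1274 bases between them, and this pair was chosen after its values were seen because Col4a5 is among the genes called. The windows are chr8:11312555-11312854 on the plus strand for Col4a2, chrX:141475169-141475468 on the plus strand for Col4a5 and chrX:141474027-141474326 on the minus strand for Col4a6, each written 5′ to 3′. Capitals mark matches on either strand to a GC box (GGGCGG or CCGCCC) or a CCAAT box (CCAAT or ATTGG).
Col4a2: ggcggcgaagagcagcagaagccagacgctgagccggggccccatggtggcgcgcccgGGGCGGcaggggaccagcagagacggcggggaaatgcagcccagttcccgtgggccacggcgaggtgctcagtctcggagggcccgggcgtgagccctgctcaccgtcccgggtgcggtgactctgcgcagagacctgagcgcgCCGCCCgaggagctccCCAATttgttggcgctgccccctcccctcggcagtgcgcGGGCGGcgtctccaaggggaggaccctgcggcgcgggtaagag
Col4a5: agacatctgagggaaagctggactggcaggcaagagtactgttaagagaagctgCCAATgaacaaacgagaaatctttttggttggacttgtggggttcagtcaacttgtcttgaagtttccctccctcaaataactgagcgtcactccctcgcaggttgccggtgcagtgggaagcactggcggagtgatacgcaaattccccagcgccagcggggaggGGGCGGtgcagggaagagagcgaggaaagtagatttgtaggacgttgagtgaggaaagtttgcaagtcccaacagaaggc
Col4a6: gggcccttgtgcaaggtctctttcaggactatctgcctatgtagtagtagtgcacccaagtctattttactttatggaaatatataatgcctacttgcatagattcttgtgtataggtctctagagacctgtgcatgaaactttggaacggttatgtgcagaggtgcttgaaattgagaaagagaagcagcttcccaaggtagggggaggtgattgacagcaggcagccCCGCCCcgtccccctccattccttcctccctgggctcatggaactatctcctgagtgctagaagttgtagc
The Col4a2 window held 3 GC boxes and 1 CCAAT box, the Col4a5 window 1 of each and the Col4a6 window 1 GC box, with no overlap between matches. None of the 3 windows held TATAAA or its complement. Over 32851 promoter windows of this length, 35.7% held a GC box, 37.4% a CCAAT box and 13.6% the TATAAA letters, so the matches are common.

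The make-up and RNA quality of the tumours varied between arrays. On the leading 2 principal components, which held 48.5% and 21.6% of the variance, parental IgG replicate 1 and parental anti-PD-1 replicate 3 stood apart. Markers of epithelium, the labelled origin of the tumour, were present on all arrays, with Krt8 at 13.15 to 13.40 and Krt18 at 12.84 to 13.24 as group means. Over 10 epithelial markers the mean level ran from 8.95 to 9.92 on parental IgG arrays, 8.81 to 9.41 on parental anti-PD-1, 8.58 to 8.70 on resistant IgG and 8.63 to 8.74 on resistant anti-PD-1 arrays. Over 12 fibroblast markers it ran from 6.28 to 7.23, 7.07 to 8.26, 7.68 to 8.09 and 7.45 to 7.68 in the same order, and over 12 skeletal muscle markers from 6.77 to 10.99, 9.72 to 11.64, 9.35 to 10.30 and 6.32 to 9.34. The 3′ probe sets of the Gapdh control exceeded the 5′ ones by 0.26 ± 0.10 (SD, n = 6) on parental arrays and by 0.035 ± 0.052 (n = 6) on resistant ones. For the actin control the excess was 0.753 ± 0.105 (n = 6) and 0.483 ± 0.080 (n = 6). Every parental array lay above every resistant one for both controls. The lowest parental value was 0.14 against a highest resistant one of 0.09 for Gapdh, and 0.58 against 0.55 for actin. This measure of RNA quality thus went with the line. The part of tissue content and RNA quality in the differences below was not tested, and in whole tumours fewer cells of a type and less RNA per cell cannot be told apart.

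Between the lines, Col7a1 was the collagen gene with the largest called decrease in resistant tumours under either antibody. It encodes type VII collagen, the main protein of the anchoring fibrils that tie epithelial basement membrane to connective tissue, and lies at chr9:108953586-108984875. Its levels on replicates 1 to 3 were 7.80, 7.70 and 6.79 in parental tumours given IgG and 8.22, 7.82 and 8.26 in those given anti-PD-1. On the resistant arrays they were 6.57, 6.38 and 6.58 with IgG and 6.63, 6.77 and 6.47 with anti-PD-1. All 6 parental arrays lay above all 6 resistant arrays, although parental IgG replicate 3 lay close to the highest resistant array. The difference was -1.48 (SE 0.23, limma adjusted p = 0.000879), or 2.78-fold lower, under anti-PD-1, and -0.92 (SE 0.23, adjusted p = 0.0216), or 1.89-fold lower, under IgG. The call under anti-PD-1 held on leaving out each of the 6 arrays in turn. The call under IgG was lost without parental IgG replicate 1 or 2 or resistant IgG replicate 1 or 2, with differences between -0.95 and -0.735 and adjusted p-values of up to 0.0785. It was also lost without both arrays that stood apart (adjusted p = 0.0582) and in a fit of the IgG groups alone (adjusted p = 0.0531). Of the 10 epithelial markers 9 had a lower mean in resistant tumours under IgG and 8 under anti-PD-1. Under each 3 were called lower (Krt18, Ocln and Epcam, then Krt18, Ocln and Cldn4), against 7.31% and 11.9% of all genes. Krt19 differed the other way, from 11.11 ± 0.26 to 11.32 ± 0.17 (SD, n = 3) under IgG and from 10.88 ± 0.35 to 11.43 ± 0.09 under anti-PD-1, where it was called higher at 0.55 (limma adjusted p = 0.0346). That call was lost without parental anti-PD-1 replicate 2 or 3 or any 1 of the resistant anti-PD-1 arrays, at up to 0.117. Krt18 differed by -0.38 (adjusted p = 0.0159) with IgG and -0.36 (adjusted p = 0.0094) with anti-PD-1 and Ocln by -2.97 and -2.77. Leaving out parental IgG replicate 1 or resistant IgG replicate 1 or 2 raised the adjusted p of Krt18 under IgG to as much as 0.0577, and the Epcam call was lost without any 1 array but parental IgG replicate 3, at up to 0.104.

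Col13a1 moved the other way, higher in resistant tumours under both antibodies. It encodes type XIII collagen, a transmembrane collagen of cell adhesion sites, at chr10:61838234-61979206. Its levels were 4.37, 4.31 and 4.09 in parental tumours given IgG and 4.8, 4.81 and 4.92 in resistant ones, a difference of 0.59 (SE 0.09, adjusted p = 0.00217), or 1.5-fold. With anti-PD-1 they were 4.32, 4.18 and 4.23 in parental and 4.54, 4.58 and 4.41 in resistant tumours, a difference of 0.27 (SE 0.09, adjusted p = 0.042), or 1.20-fold. Parental and resistant arrays did not overlap under either antibody, and the steps are small on a dim probe set. The IgG call held on leaving out each array. The anti-PD-1 call was lost without parental anti-PD-1 replicate 2 or 3 or resistant anti-PD-1 replicate 1 or 2, with adjusted p-values of up to 0.13.

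**Figure D1:**
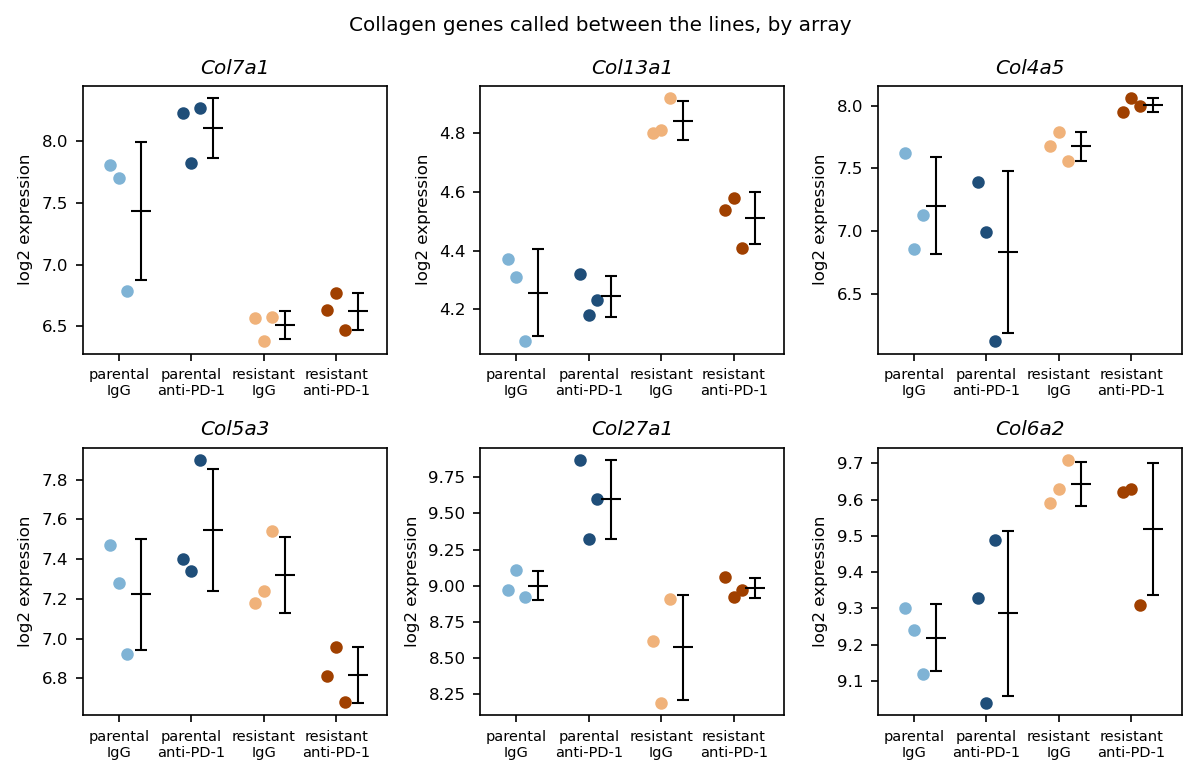
Log2 expression (vertical axis, a range of its own for each gene) of the 6 collagen genes called between the lines, by group. Points are single arrays and the bars beside them the group mean ± SD of 3 arrays. Col7a1 is lower and Col13a1 higher on all 6 resistant arrays than on all 6 parental ones, while under anti-PD-1 Col4a5 is spread from 6.12 to 7.39 in parental tumours and sits between 7.95 and 8.06 in resistant ones.

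Under control IgG, which asks how the lines differ without the treatment, 3 of 38 collagen genes were called, against 16.2% of all genes tested, with 2 higher in resistant tumours (8.93% of all genes) and 1 lower (7.31%). Besides Col7a1 and Col13a1 this was Col6a2, the second chain of type VI collagen, which forms beaded filaments near cell surfaces. Its levels were 9.30, 9.24 and 9.12 in parental and 9.59, 9.63 and 9.71 in resistant tumours, without overlap, and it rose by 0.42 (SE 0.12, adjusted p = 0.0404), or 1.34-fold. The call was lost on leaving out any 1 of the 6 arrays, with adjusted p-values from 0.0618 to 0.12, and a second Col6a2 probe set differed by 0.39. Its chromosome 10 neighbour Col6a1, whose chain joins the same type VI molecule, stood at 9.77, 9.47 and 9.49 against 9.86, 9.87 and 10.12, also without overlap, a difference of 0.37 (SE 0.14) that did not pass the test (adjusted p = 0.0965). The third main chain, Col6a3, overlapped between the lines at 9.36, 9.65 and 8.98 against 9.20, 9.40 and 9.85.

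Under IgG most collagen genes, called or not, differed in the same direction. The difference was positive, higher in resistant tumours, for 33 of 38 collagen genes, with a median of 0.21 against 0.07 over all genes. All 3 resistant arrays lay above all 3 parental ones for 15 of 38, against 23.6% of all genes, and below them for 2 (Col7a1 and Col27a1), against 15.2%. At an unadjusted p under 0.05 there were 11 of 38, against 33.1% of all genes. By type the median was 0.37 for 10 fibrillar genes, 0.41 for 5 type IV genes and 0.16 for 23 others. Centring each array on its median gave 7 collagen calls, 6 higher and 1 lower, and raised the share of all calls that were higher from 55.0% to 70.3%.

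Among the fibrillar genes none was called under IgG, and at an unadjusted p under 0.05 limma gave Col3a1 and Col27a1. Col3a1, the single chain of type III collagen, was at 11.65, 12.12 and 11.91 in parental and 12.44, 12.73 and 12.89 in resistant tumours. The groups did not overlap, and the difference of 0.79 (SE 0.26) had an adjusted p of 0.0596. Col1a1 and Col1a2, the chains of type I collagen, stood at 9.46, 10.05 and 9.54 against 10.14, 10.03 and 10.71, and at 11.69, 11.88 and 11.77 against 12.13, 12.15 and 12.59. Their differences were 0.61 (95% confidence interval -0.24 to 1.46, adjusted p = 0.297) and 0.51 (adjusted p = 0.333), so a rise of more than 2-fold or a small fall of Col1a1 is within the error. Col14a1, a collagen that coats fibrils, was at 6.03, 6.40 and 6.91 against 7.37, 8.07 and 7.90, a difference of 1.33 (SE 0.44, adjusted p = 0.0624). Col3a1 and Col14a1 passed under several of the alternatives run, among them the fit without both arrays that stood apart, with 0.67 (adjusted p = 0.0199) and 1.12 (adjusted p = 0.00932).

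Markers of several stromal cell types had the same direction under IgG, while those of macrophages, nerve and cartilage were more mixed. Of 12 fibroblast markers 11 were higher in resistant tumours under IgG, with a median difference of 0.88, and 4 were called (S100a4, Mfap5, Pi16 and Cd34), while all 10 endothelial markers were higher, with a median of 0.72 and 2 calls (Emcn and Tie1). All 8 adipocyte markers were higher, with a median of 1.10 and 2 calls (Pparg and Adipoq), as were 9 of 10 smooth muscle and pericyte markers, with a median of 0.53 and 1 call (Notch3), and 11 of 12 skeletal muscle markers, with a median of 0.65 and no call. S100a4, Mfap5 and Pparg kept their calls on leaving out each array, whereas Pi16, Cd34, Emcn, Tie1, Adipoq and Notch3 lost theirs without at least 1, each of the 6 IgG arrays ending at least 1 of these calls, at adjusted p-values of up to 0.127. For comparison, 8.93% of all genes were called higher under IgG, and the median over all genes was 0.07. Whether the calls in these marker lists exceed that share was not tested. Between the lines under anti-PD-1 the medians of these lists turned. Lower in resistant tumours were 9 of 12 fibroblast (median -0.22), 8 of 10 endothelial (-0.27) and 7 of 8 adipocyte markers (-0.29). So were 9 of 10 smooth muscle and pericyte markers (-0.32) and all 12 skeletal muscle markers (-2.41). Parental replicate 3 had the highest mean of the 6 anti-PD-1 arrays for each list. Its fibroblast mean was 8.26, against 7.07 and 7.38 on the other parental and 7.45 to 7.68 on the resistant arrays. The endothelial means were 6.86 against 5.76 and 6.01 and against 5.79 to 6.24, and the adipocyte means 6.56 against 5.33 and 5.87 and against 5.25 to 5.93. S100a4 (mean 10.06 to 12.45) and Pparg (7.15 to 7.74) were still called higher there, against the direction of their own lists. The part of these cell types in the collagen levels was not tested.

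All 5 type IV genes tested had a positive difference under IgG and none was called. Col4a1 was at 9.71, 9.52 and 9.53 in parental and 9.82, 9.81 and 10.57 in resistant tumours, and Col4a2 at 8.58, 8.17 and 8.16 against 8.42, 8.60 and 9.13. Their chains join in the common type IV molecule of most basement membranes. Col4a1 did not overlap between the lines and Col4a2 did, with differences of 0.48 (adjusted p = 0.11) and 0.41 (adjusted p = 0.185). Resistant IgG replicate 3 was the highest of the 6 arrays for both.

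Under anti-PD-1, 5 of 38 collagen genes were called, against 33.5% of all genes, with 2 higher (21.6% of all genes) and 3 lower (11.9%). Col7a1 and Col13a1 are given above, and the others were Col4a5, Col5a3 and Col27a1. Col4a5 at chrX:141475370-141689236 encodes the alpha 5 chain of type IV collagen, which replaces or joins the common chains in specialised basement membranes such as those of the kidney glomerulus. Its levels were 7.39, 6.99 and 6.12 on parental and 7.95, 8.06 and 8.0 on resistant arrays with anti-PD-1. The resistant arrays lay close together above all parental ones, of which replicate 3 was far below the other 2. The difference was 1.17 (95% confidence interval 0.57 to 1.77, SE 0.27, adjusted p = 0.00779), or 2.25-fold higher, and it was 0.81 (adjusted p = 0.012) without parental anti-PD-1 replicate 3. A second Col4a5 probe set differed by 0.89. Under IgG the levels were 7.62, 6.86 and 7.13 against 7.68, 7.79 and 7.56, a difference of 0.47 with overlap that did not pass the test (adjusted p = 0.253). Without both arrays that stood apart Col4a5 was called under IgG too, at 0.68 (limma adjusted p = 0.00968). Array weights also gave a call, at 0.59 (adjusted p = 0.0161). The head-to-head neighbour Col4a6, at 4.12, 3.86 and 4.43 on parental and 3.89, 3.72 and 3.86 on resistant arrays with anti-PD-1, differed by -0.31 (adjusted p = 0.0718). A second and dimmer Col4a6 probe set, at a mean of 3.1, differed by 0.26, so the direction of Col4a6 rests on the probe set.

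Col5a3 and Col27a1, both fibrillar, were lower in resistant tumours under anti-PD-1. Col5a3 at chr9:20770050-20815117 encodes a chain of type V collagen, which helps to set fibril diameter. It stood at 7.40, 7.34 and 7.90 in parental and 6.81, 6.96 and 6.68 in resistant tumours, without overlap, and fell by 0.73 on the log2 scale (SE 0.18, adjusted p = 0.00941), or 1.66-fold. Its call held on leaving out each array, while a second and dim probe set, at a mean of 2.83, differed by -0.10. Under IgG the Col5a3 levels overlapped at 7.47, 7.28 and 6.92 against 7.18, 7.24 and 7.54.

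Col27a1 at chr4:63214009-63334991 encodes a fibrillar collagen best known from cartilage. It was at 9.87, 9.32 and 9.60 on parental and 9.06, 8.92 and 8.97 on resistant arrays with anti-PD-1, and it fell by 0.61 (SE 0.17, adjusted p = 0.02), or 1.53-fold, with a second probe set at -0.47. With IgG it was at 8.97, 9.11 and 8.92 against 8.62, 8.19 and 8.91, a difference of -0.43 (adjusted p = 0.116). The lines did not overlap under either antibody, though under IgG the nearest arrays were at 8.91 and 8.92. The call under anti-PD-1 was lost without parental anti-PD-1 replicate 1 or resistant anti-PD-1 replicate 2 or 3, at adjusted p-values of up to 0.0655.

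Under anti-PD-1 the signs across the family were mixed. The difference was positive for 17 of 38 genes and negative for 21, with a median of -0.02 against 0.07 over all genes, and -0.26 for the 10 fibrillar genes, of which 8 were negative. The resistant arrays lay above all parental ones for 5 of 38 and below for 3, against 29.9% and 15.8% of all genes, and 8 of 38 had an unadjusted p under 0.05, against 44.1%. Col1a1 stood at 9.83, 9.70 and 11.22 in parental and 10.23, 9.80 and 9.23 in resistant tumours, Col1a2 at 11.57, 11.57 and 12.97 against 12.37, 11.85 and 11.39, and Col3a1 at 11.97, 11.97 and 13.02 against 12.51, 12.40 and 12.08. In each case parental replicate 3 was the highest of the 6 arrays and the other parental arrays lay among or below the resistant ones. The differences were -0.50 (adjusted p = 0.35) for Col1a1, -0.17 for Col1a2 and 0.01 for Col3a1. Without parental replicate 3 Col1a1 moved to -0.012 and Col3a1 to 0.36, and Col1a2 turned to 0.30. Quantile normalization turned the small positive differences of Col3a1, Col6a1 (0.05) and Col6a3 (0.03) to just below 0. In this comparison, centring every array on its own median shifted the median of all genes by 0.107. Relative to it, Col7a1 differed by -1.37, Col4a5 by 1.28, Col5a3 by -0.62, Col27a1 by -0.51 and Col13a1 by 0.37, and 8 collagen genes were called, 5 higher and 3 lower, with 79.5% of all calls higher against 64.5%.

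With the lines compared within each antibody, 4 of 38 collagen genes were higher on every resistant than on every parental array under both. This compares with 13.1% of all genes. Lower under both in the same way were 2 (Col7a1 and Col27a1), against 8.21%. Besides Col13a1 the higher genes were 3, all chosen after their values were seen. These were Col9a1, a chain of the cartilage type IX collagen, with differences of 0.23 and 0.26 (adjusted p = 0.122 and 0.0595), Col22a1, a collagen of tissue junctions, with 0.21 and 0.19 (adjusted p = 0.0668 and 0.0648), and Col25a1, a transmembrane collagen of neurons, with 0.07 and 0.04. None passed the test with the settings used throughout. With arrays centred on their median Col9a1 and Col22a1 were called under both antibodies, at limma adjusted p-values of up to 0.0497. The Col25a1 arrays were set apart by the last decimal only, at 5.97 against 5.96 under IgG and 5.96 against 5.95 under anti-PD-1. Of 2 other Col22a1 probe sets, 1 differed in the opposite direction under each antibody. The remaining genes of other types were not called between the lines with the settings used throughout. Of these Col12a1, a fibril-associated collagen, ranged from 7.04 to 8.94 over the 12 arrays, Col16a1 from 6.47 to 7.34 and Col8a1, of endothelial and smooth muscle matrix, from 8.01 to 9.01. Under anti-PD-1 Col8a1 differed by 0.33 with the chosen probe set (limma adjusted p = 0.253). It was called there as a mean over its probe sets (0.64, adjusted p = 0.0338) and with its most variable one (0.90, adjusted p = 0.00754). The Col8a1 call thus rests on the probe set. Col18a1, whose end fragment is endostatin, ranged from 8.56 to 9.54 and was highest on parental IgG replicate 1, and its relative Col15a1 ranged from 6.02 to 7.18. Col8a2 ranged from 2.97 to 5.34, with its 2 highest values on parental anti-PD-1 replicate 3 and resistant anti-PD-1 replicate 1. Without the filter on dim genes, Col17a1, the transmembrane collagen of epithelial hemidesmosomes, was also called under anti-PD-1, at -0.57 and at levels of 3.14 or less.

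**Figure D2:**
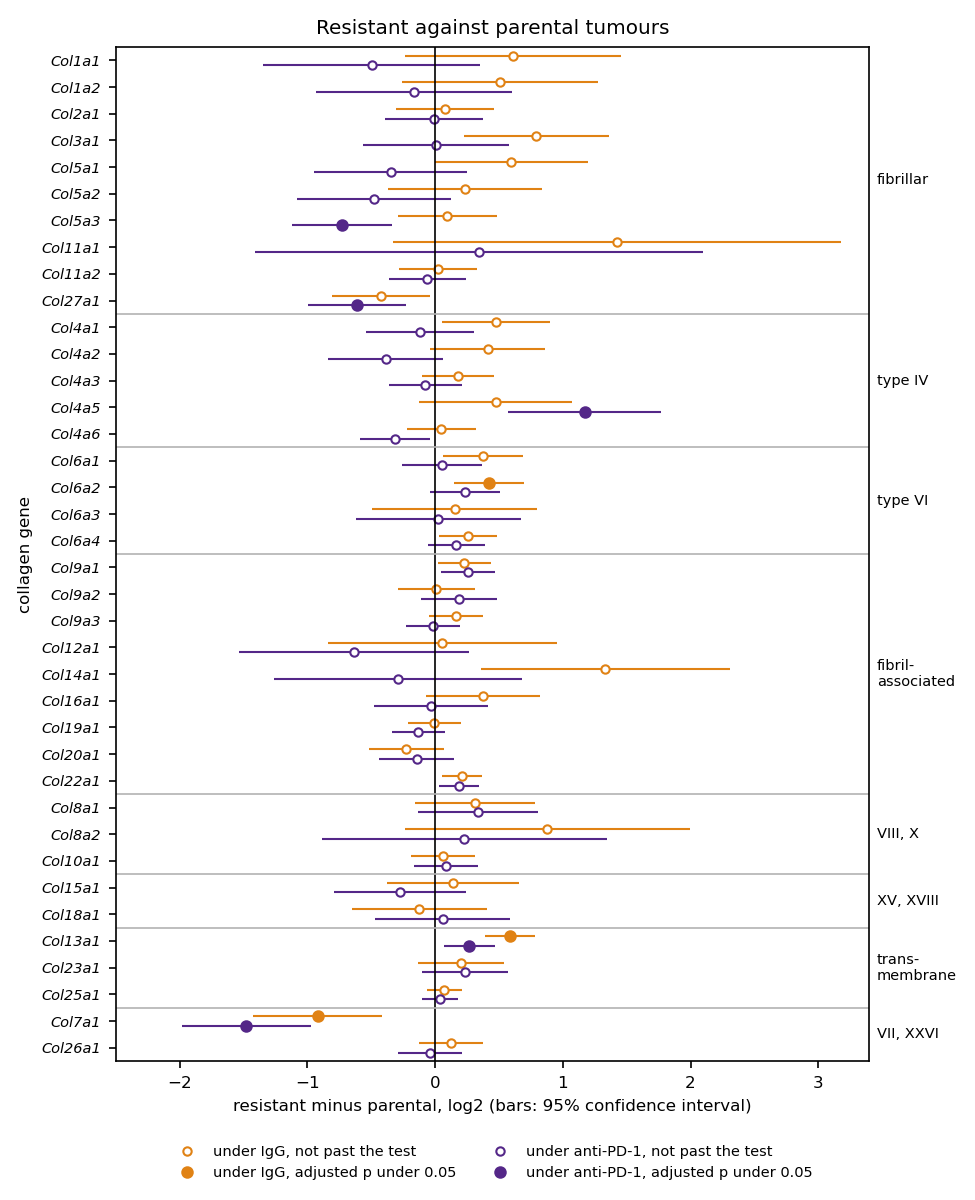
Resistant minus parental log2 expression (horizontal axis, bars are 95% confidence intervals) for 38 collagen genes sorted by type, under IgG in orange and under anti-PD-1 in purple. Filled points passed the test at an adjusted p under 0.05. Under IgG 33 of 38 points lie right of 0, under anti-PD-1 17 of 38, and Col7a1 and Col13a1 are filled under both.

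The spread within groups was wide for the fibrillar genes and 1 array stood out. The median within-group SD was 0.37 for the fibrillar genes, 0.26 for type IV and 0.18 for the others, against 0.15 over all genes. Parental anti-PD-1 replicate 3 held the highest value of the 12 arrays for 17 of 38 collagen genes and for 8 of 10 fibrillar ones. Averaged over the fibrillar genes it lay 0.85 above the mean of all arrays, while the other parental anti-PD-1 arrays lay at -0.03 and -0.30. Col11a1, a minor chain of fibrils, was at 4.62, 3.34 and 6.92 in that group. Col4a5 and Col6a4 went the other way, with their lowest value of the 12 arrays on the same replicate.

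Markers of stroma were high on that array as well. Relative to the mean of all arrays the 12 fibroblast markers averaged 0.79, the 10 endothelial markers 0.82 and the 12 skeletal muscle markers 2.18 there, and the 10 epithelial markers -0.16. Parental IgG replicate 1 had the lowest fibroblast markers (-1.19) and the highest epithelial markers (0.95) of the 12 arrays. The fibrillar collagens were at -0.33 there, the same as on resistant anti-PD-1 replicate 3, where the fibroblast markers were at -0.02. They were at -0.31 on parental IgG replicate 3 and -0.30 on parental anti-PD-1 replicate 2, with fibroblast markers at -0.38 and -0.09. The part of tissue content in the collagen levels of these arrays was not tested.

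**Figure D3:**
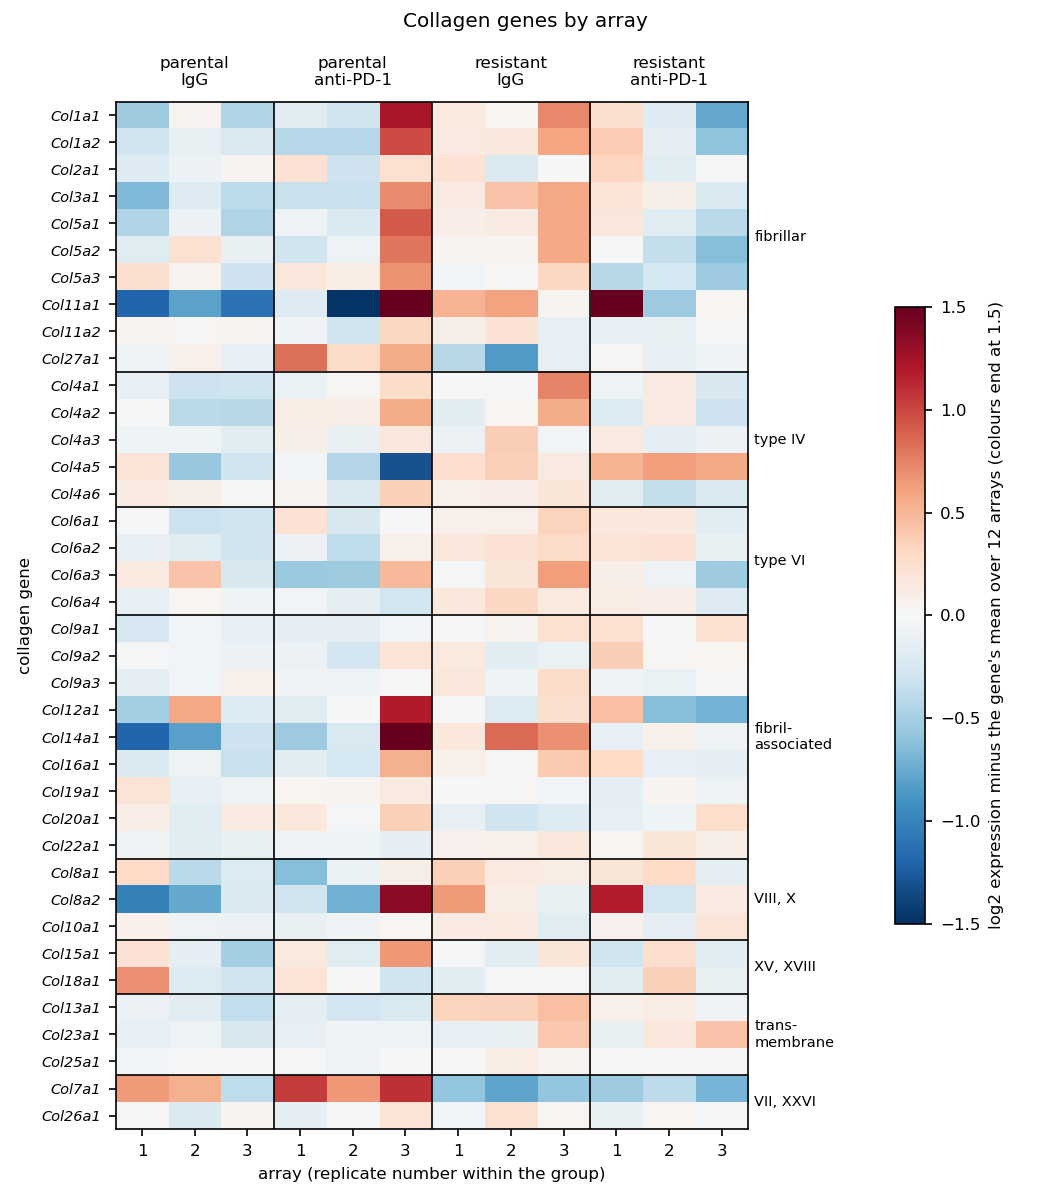
Log2 expression of 38 collagen genes (rows, sorted by type) on 12 arrays (columns, 3 per group), each as the difference from the gene's mean over all arrays; red is above and blue below, and the colours end at 1.5. Parental anti-PD-1 replicate 3 is the highest array for 8 of 10 fibrillar genes, and Col7a1 is blue on all 6 resistant arrays.

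**Figure D4:**
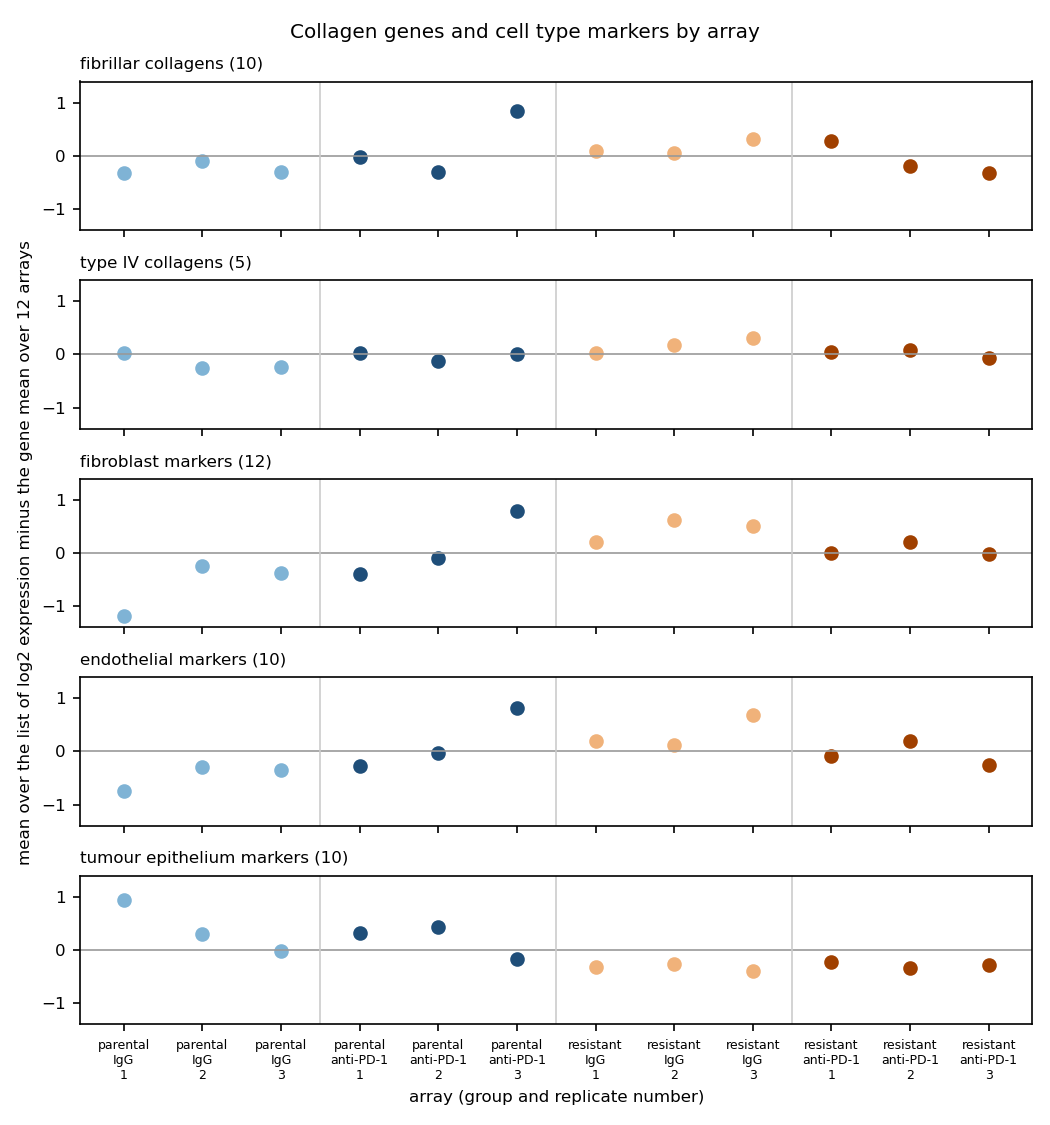
Mean over each gene list of log2 expression minus the gene's mean over 12 arrays (vertical axis), by array, for fibrillar and type IV collagens and for fibroblast, endothelial and tumour epithelium markers. On parental anti-PD-1 replicate 3 the fibrillar collagens stand at 0.85, the fibroblast markers at 0.79 and the epithelial markers at -0.16.

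Anti-PD-1 against IgG, the effect of the antibody within a line, gave no collagen call in either line. In parental tumours 0 of 38 passed limma's test, against 3.5% of all genes, and 4 of 38 had an unadjusted p under 0.05, against 21.9%. These were Col27a1 at 0.60 (SE 0.17, adjusted p = 0.0824), Col7a1 at 0.67 (adjusted p = 0.126), Col4a2 at 0.53 (adjusted p = 0.163) and Col14a1 at 1.02 (adjusted p = 0.21), all higher with anti-PD-1. Col27a1, Col7a1, Col4a1 and Col4a2 were higher on every anti-PD-1 array than on every IgG array, 4 of 38 against 9.12% of all genes. The difference was positive for 26 of 38 collagen genes, with a median of 0.14 against -0.01 over all genes and 0.38 for the fibrillar genes, which turned to -0.03 without both arrays that stood apart. Of the 12 fibroblast markers 10 were higher with anti-PD-1, with a median of 0.68, and Pi16 was called at 1.38 (adjusted p = 0.0411), a call lost without any 1 of the 3 IgG arrays or anti-PD-1 replicate 1 or 3, at up to 0.104. Of the 12 skeletal muscle markers all were higher, with a median of 1.29, and none was called. For both marker lists the lowest parental array was IgG replicate 1 (means of 6.28 and 6.77). The highest was anti-PD-1 replicate 3 (8.26 and 11.64).

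In resistant tumours 0 of 38 collagen genes were called and 0.0% of all genes were. At an unadjusted p under 0.05 there were 4 of 38, against 4.74% of all genes, all with an adjusted p of 0.896. Col13a1 went from 4.8, 4.81 and 4.92 with IgG to 4.54, 4.58 and 4.41 with anti-PD-1, a difference of -0.33 (SE 0.09), and Col5a3 differed by -0.50 and Col4a6 by -0.37, each without overlap, while the second Col4a6 probe set differed by 0.06. Col27a1 differed by 0.41, the same sign as in parental tumours. The arrays did not overlap for 8 of 38 genes (14.2% of all genes), 2 of them higher (8.82%) and 6 lower (5.39%) with anti-PD-1. The median over all collagens was -0.11 against 0.03 over all genes, and -0.38 for the fibrillar genes. Of the fibroblast markers 11 of 12 were lower with anti-PD-1, with a median of -0.45, and all 12 skeletal muscle markers, with a median of -1.75.

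**Figure D5:**
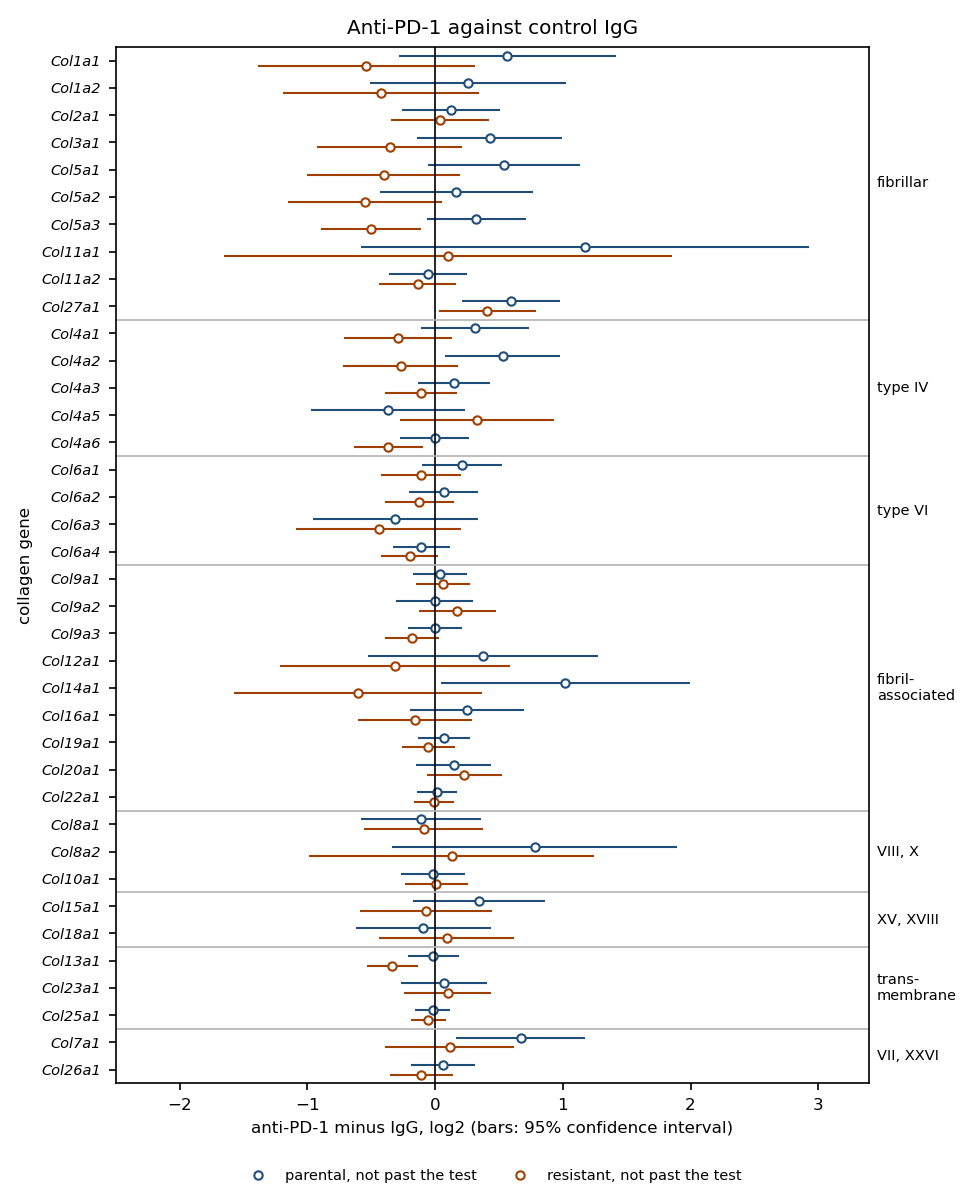
Anti-PD-1 minus IgG log2 expression (horizontal axis, bars are 95% confidence intervals) for 38 collagen genes sorted by type, in parental tumours in blue and resistant tumours in brown. No gene passed the test in either line. The parental points of most fibrillar genes lie right of 0 and the resistant ones left, and their intervals mostly include 0.

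The test of whether the antibody's effect differed between the lines called 0 of 38 collagen genes and 0.0% of all genes, with 6 of 38 and 17.5% at an unadjusted p under 0.05. The smallest adjusted p was that of Col5a3 (0.174), at -0.83 (95% confidence interval -1.38 to -0.28), and the others were Col14a1 (-1.62), Col5a1 (-0.94), Col4a2 (-0.80), Col4a1 (-0.60) and Col13a1 (-0.32). The interaction was negative for 30 of 38 collagen genes and for all 10 fibrillar genes. The fibrillar median of -0.75 was -0.24 without both arrays that stood apart. The line by treatment values of Col1a1 (-1.11, adjusted p = 0.314) and Col3a1 (-0.78, adjusted p = 0.294) therefore give no difference past the test. The fibroblast markers had a median of -1.07, 11 of 12 being negative, and the endothelial markers one of -1.03. The arrays that stood apart weigh on these medians too. Relative to the mean of all arrays, parental IgG replicate 1 was the lowest for both lists, at -1.19 and -0.74. Parental anti-PD-1 replicate 3 was the highest, at 0.79 and 0.82.

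Genes that act on collagen outside the family were read from the same fit. Of 7 genes tested that process procollagen or crosslink fibrils, 3 rose and 1 fell in resistant tumours under IgG, and 1 rose and 1 fell under anti-PD-1. The calls made up 57.1% and 28.6% of this list, against 16.2% and 33.5% of all genes tested. Loxl4, a lysyl oxidase that crosslinks collagen, rose from 5.23 ± 0.16 to 6.33 ± 0.13 (SD, n = 3) under IgG, a difference of 1.11 (limma adjusted p = 0.000164), and from 5.51 ± 0.09 to 6.28 ± 0.09 under anti-PD-1, a difference of 0.77 (adjusted p = 0.00039). The related crosslinking enzymes Lox and Loxl1 rose by 1.19 each under IgG. Bmp1, the protease that trims the carboxyl ends of procollagens, fell by 0.54 under IgG and by 0.68 under anti-PD-1.

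Of 20 genes of collagen synthesis and secretion, 3 rose and 1 fell under IgG and 4 rose and 3 fell under anti-PD-1, so 4 of 20 and 7 of 20 were called, against 16.2% and 33.5% of all genes. P3h4, a partner of collagen lysine hydroxylation, rose by 0.84 under anti-PD-1 (adjusted p = 0.000867). P4ha2, a prolyl hydroxylase subunit, fell by 0.96 under anti-PD-1 on the log2 scale, and Creb3l1, a transcription factor of collagen secretion, fell by 0.81 there and by 0.72 under IgG. P3h1 (0.31), Sec23a (0.31) and Mia3 (0.28), of prolyl hydroxylation and of the export of procollagen from the endoplasmic reticulum, rose under IgG.

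Of 9 collagen receptors, 1 rose and 2 fell under IgG and 3 fell under anti-PD-1, which is 33.3% under each antibody against 16.2% and 33.5%. Ddr1, the collagen receptor kinase typical of epithelial cells, fell from 9.96 ± 0.15 to 9.15 ± 0.07 under IgG (difference -0.81, adjusted p = 0.00144) and by 0.75 under anti-PD-1 (adjusted p = 0.000843). Ddr2, its relative of mesenchymal cells, rose by 0.53 under IgG. Itga2, an integrin chain that binds collagen, fell by 0.60 and 0.92 in the same order, and Itga1, which prefers type IV collagen, fell by 1.13 under anti-PD-1.

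Of 12 genes of collagen breakdown and its inhibitors, 3 rose under IgG, and 1 rose and 1 fell under anti-PD-1 (3 of 12 and 2 of 12 in all, against 16.2% and 33.5% of all genes). Timp1, an inhibitor of matrix metalloproteinases, rose from 9.62 ± 0.13 to 10.69 ± 0.29 under IgG (difference 1.07, adjusted p = 0.00146), beside the collagen-cleaving protease Ctsk (1.4) and the fibroblast protease Fap (0.80). Under anti-PD-1 the interstitial collagenase Mmp13 fell by 1.14 and the gelatinase Mmp9 rose by 1.12.

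Of 15 other basement membrane genes, 4 rose and 1 fell under IgG and 2 fell under anti-PD-1 (33.3% and 13.3%, against 16.2% and 33.5%). Nid2, a linker of laminin and type IV collagen, rose by 1.20 under IgG (adjusted p = 0.00926), with the collagen-binding Sparc (0.94) and the laminin chain Lama4 (0.83). Agrn, a basement membrane proteoglycan, fell by 0.89 under IgG and 0.67 under anti-PD-1, and the epithelial laminin chain Lama5 fell by 0.70 under anti-PD-1. Of 16 proteoglycans and matrix proteins that sit on fibrils, 2 rose (Prelp by 1.70 and Fbln1 by 0.83) and 1 fell (Tnc by 0.82) under IgG, and Fbln2, Thbs1 and Tnc fell by 0.55, 1.07 and 0.60 under anti-PD-1. This was 18.8% of the list under each antibody, against 16.2% and 33.5% of all genes.

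Of 17 genes of the TGF-beta pathway, an inducer of collagen genes, and its matrix targets, 1 rose under IgG (the coreceptor Tgfbr3 by 1.63), and 2 rose and 3 fell under anti-PD-1. Both shares, 5.88% and 29.4%, were under the 16.2% and 33.5% of all genes. The ligand Tgfb2 rose by 0.94 and the signal transducer Smad2 by 0.38, while the transducer Smad3 fell by 0.51 and the target Tgfbi by 0.97. Smad3 turned to 0.15 as a mean over its probe sets and to 0.54 with its most variable one, so its direction rests on the probe set. None of these companion genes was called for the antibody in either line or for the interaction. Among the companion genes named, Loxl4, Ddr1, Timp1, Agrn and Nid2 under IgG and P3h4, P4ha2, Creb3l1, Loxl4, Bmp1, Ddr1, Itga1, Itga2, Mmp13, Fbln2, Thbs1, Lama5, Agrn, Tgfb2, Smad2 and Smad3 under anti-PD-1 kept their calls on leaving out each array. The others lost theirs without at least 1 array, each of the 12 arrays ending at least 1 of these calls, at adjusted p-values of up to 0.157.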

How the data were processed

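Per the labels' protocols, tumour RNA was extracted with Triazol, turned into biotin-labelled cRNA and hybridized to 12 Affymetrix GeneChip arrays for mouse genes. The values deposited by the authors are log2 expression levels, 1 for each probe set on an array, from 1.62 to 13.88. That they are log2 values normalized between arrays was read from the deposited values, and no source used here states the method. Arrays were grouped by their titles. No 2 arrays were identical (0 pairs), with correlations of 0.959 to 0.997.

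Of 45101 probe sets, those with 1 gene (34945) were used, and 34741 symbols were matched by gene number to a RefSeq table of GRCm38.p6, from which positions and promoter windows also come. Each gene was read from its probe set of highest mean level, and 27 of 42 collagen genes had several. Genes needed at least 3 arrays over 3.32, the 25th percentile, and 15493 passed. Differences came from limma 3.58.1 (R 4.3.3), fitted to all 12 arrays with a mean for each group and 5 contrasts, two-sided, with 8 residual and 2.98 prior degrees of freedom and Benjamini-Hochberg adjustment within a contrast. It was tested on simulated data. Contrasts that share a group share its arrays, while the line comparisons under each antibody share none. The number of arrays limits the precision, with a median standard error of a difference of 0.117 over all genes.

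The collagen genes, companion lists and markers were chosen with earlier results of these data known. Values on every array are given for collagen genes called in any contrast and for Col1a1, Col1a2, Col3a1, Col4a1, Col4a2, Col6a1, Col6a2 and Col6a3, and up to 4 companion genes of the smallest p per list are named. Col5a1, Col4a6, Col8a2, Col9a1, Col11a1, Col12a1, Col14a1, Col15a1, Col16a1, Col17a1, Col18a1, Col22a1 and Col25a1 were added after their values were seen. Alternatives were other filters, probe set rules and normalizations, array weights, an intensity trend, a replicate block, fits of the compared groups alone, and leaving out arrays. The replicate numbers were checked over pairs of same-numbered arrays, whose deviations from the group means correlated between -0.208 and 0.636. Between the resistant groups all 3 pairs exceeded 0.1 (0.113, 0.123 and 0.174), as did all 3 between parental IgG and resistant anti-PD-1 (0.411, 0.181 and 0.438), which no contrast sets directly against each other. A fit of the resistant arrays with the replicate block, chosen after seeing the data, called 0 collagen genes, as did the fit without it.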

Additional observations from a re-analysis of the deposited data

How the results depend on the processing

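Of the 3 collagen calls between the lines under IgG, the count was 7 with arrays centred on their median, 10 with array weights, 5 without both arrays that stood apart and 6 with only the groups compared, and 1 to 3 on leaving out each array. Under anti-PD-1 the 5 calls became 8 with centring, 3 without both arrays that stood apart and 4 to 5 on leaving out each array. The 0 calls for the antibody in either line and for the interaction did not change under any alternative run. With the replicate block the counts stayed at 3 and 5 for the lines and 0 elsewhere, although under IgG Col14a1 gained a call (adjusted p = 0.0273) and Col6a2 lost its own, as it did with the mean over probe sets and with the most variable probe set. Col14a1 was also called under IgG with centring, with weights, without both arrays and with only the groups compared, and Col3a1 with these 4 and with the most variable probe set. Among others, Col4a5 was called under IgG with weights and without both arrays, Col9a1 with centring and quantile normalization, and Col22a1 with centring and weights. Under anti-PD-1 Col8a1 was called with both other probe set rules, and Col22a1 with centring and quantile normalization. Col9a1 was called there with centring, quantile normalization, weights and the stricter filter. Col7a1 under IgG lost its call without both arrays (adjusted p = 0.0582) and with only the groups compared (adjusted p = 0.0531). Col13a1 under anti-PD-1 lost its call with the intensity trend, without both arrays that stood apart and with only the groups compared, and Col27a1 without both arrays (adjusted p = 0.0529). The differences whose sign turned had not been called, apart from that of Smad3. Between the lines under anti-PD-1, array weights and leaving out both arrays gave 0.169 and 0.300 for Col1a2 and 0.123 and 0.347 for Col14a1, leaving out both gave 0.007 for Col5a1, and quantile normalization gave -0.032 for Col3a1, -0.002 for Col6a1 and -0.025 for Col6a3. Smad3, called at -0.51, became 0.147 and 0.543 with the other probe set rules. For the antibody in parental tumours, weights and leaving out both arrays gave 0.034 and 0.050 for Col13a1 and -0.094 and -0.255 for Col1a2, weights gave -0.005 for Col6a2, and leaving out both gave -0.030 for Col1a1, -0.045 for Col3a1 and 0.195 for Col4a5. For the interaction of Col6a3 they gave 0.193 and 0.200. The cause of these turns was not tested. On leaving out each array, values ran from -0.055 to 0.220 for Col5a3 and -0.030 to 0.313 for Col6a3 under IgG. Under anti-PD-1 they ran from -0.417 to 0.300 for Col1a2, -0.165 to 0.360 for Col3a1, -0.065 to 0.165 for Col6a1, -0.152 to 0.368 for Col6a3, -0.558 to 0.007 for Col5a1, -0.463 to 1.327 for Col11a1 and -0.688 to 0.347 for Col14a1. For the antibody in parental tumours they ran from -0.097 to 0.043 for Col13a1, -0.210 to 0.490 for Col1a2 and -0.035 to 0.190 for Col6a2, and for the interaction of Col6a3 from -0.305 to 0.215. Signal over background limits Col13a1, which the stricter filter left out, and the other dim genes.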
